A study of Mus musculus with 2 samples.

Results

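Globin and red cell genes were followed in the ureters of mouse embryos at E18.5. The set holds 8 genes, picked by the gene name printed for each spot of the array. They are the adult-type globins Hba-a1, Hbb-b1 and Hbb-b2, the embryonic globins Hba-x, Hbb-y and Hbb-bh1, the red cell anion exchanger Slc4a1 and the haem synthesis enzyme Alas2. These genes have 9 probes of 1 spot each, 2 of them for Hbb-y, and were read against the 20989 features tested. Total RNA of NMRI ureters was labelled with AlexaFluor555 (green) or AlexaFluor647 (red) and hybridised to 2 arrays, a male and a female one, on each of which the 2 genotypes competed. The Rbpj-cKO embryos are Tbx18(cre/+);Rbpj(fl/fl), so a cre recombinase made from 1 allele of Tbx18, a gene of the mesenchyme around the ureter, acts on 2 floxed copies of Rbpj, the DNA-binding partner of Notch receptors. The controls are Rbpj(fl/?), with at least 1 floxed copy and no cre listed. Rbpj-cKO RNA was red on the male array and green on the female array. The labels do not say whether RNA of several embryos was pooled. The comparison asks which transcripts differ when Rbpj is targeted in the ureteric mesenchyme. With no cre listed for the controls, effects of the cre and its Tbx18 allele cannot be told apart from those of Rbpj.

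Haemoglobin is a tetramer of alpha-type and beta-type chains. The first red cells of the mouse embryo form in the yolk sac and use embryonic chains (zeta from Hba-x, epsilon-y from Hbb-y and beta-h1 from Hbb-bh1), and later cells form in the fetal liver and use the adult chains. In a dissected organ such as the ureter, red cells come with the blood in its vessels. In whole tissue, fewer cells of a type and less RNA per cell cannot be told apart.

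The stretches of DNA before the start sites of 5 of the 8 genes are shown because the comparison sets the adult against the embryonic generation of globins. Each is the 120 bases before the start site in RefSeq (GRCm38.p6), 5′ to 3′ on the strand of the gene. Capitals mark 4 short motifs on either strand: CACCC (the letters KLF factors bind), CCAAT (those of NF-Y), GATAA (those of GATA factors) and TATAA (those of the basal transcription machinery). RefSeq gives the accession of the Hbb-b1 probe the symbol Hbb-bt. The other 3 genes had no entry.
Hba-a1, adult alpha, chr11:32283552-32283671, plus strand: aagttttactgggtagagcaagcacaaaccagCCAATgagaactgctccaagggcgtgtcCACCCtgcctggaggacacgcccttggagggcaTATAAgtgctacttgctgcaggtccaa
Hbb-b1 (Hbb-bt), adult beta, chr7:103813924-103814043, minus strand: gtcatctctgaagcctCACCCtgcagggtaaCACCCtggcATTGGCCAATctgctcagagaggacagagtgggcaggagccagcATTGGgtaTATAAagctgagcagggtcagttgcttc
Hba-x, embryonic alpha, chr11:32276480-32276599, plus strand: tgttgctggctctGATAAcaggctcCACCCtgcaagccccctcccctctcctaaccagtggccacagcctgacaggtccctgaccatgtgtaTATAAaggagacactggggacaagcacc
Hbb-y, embryonic beta, chr7:103853208-103853327, minus strand: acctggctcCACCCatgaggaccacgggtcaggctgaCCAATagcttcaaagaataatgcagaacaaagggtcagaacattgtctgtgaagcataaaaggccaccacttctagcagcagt
Alas2, haem synthesis, chrX:150547297-150547416, plus strand: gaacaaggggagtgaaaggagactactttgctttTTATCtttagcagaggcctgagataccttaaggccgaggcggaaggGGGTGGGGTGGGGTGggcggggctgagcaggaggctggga

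CACCC was present in all 5 windows, the adult and embryonic globins alike, against 31.7% of 32851 such windows in the RefSeq table. CCAAT was present in Hba-a1, Hbb-b1 and Hbb-y and in 21.3% of all windows. TATAA was present in Hba-a1, Hbb-b1 and Hba-x and in 11.8% of all windows, and GATAA in Hba-x and Alas2 and in 10.5%. In Hbb-b1 a CCAAT on each strand lies side by side. A match is a description of the letters and not a binding site.

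The 2 arrays limit the precision. In each channel 66.8% to 71.1% of the probe spots stood well above background, no probe spot was saturated, and all 9 probes of the 8 genes were well above background in the 4 channels. For Rbpj the ratio was -1.58 (male) and -0.93 (female; mean -1.25, SD 0.46, n = 2; limma adjusted p = 0.0760). Markers of the labelled tissue were measured, with 12 of 12 urothelial and 9 of 9 smooth muscle and mesenchymal markers kept by the filter. None of them passed; the urothelial median ratio was 0.21 and the mesenchymal one -0.13. A ratio is log2 of Rbpj-cKO over control, a level is a normalised log2 signal, and p-values are from limma, adjusted over all features. Ratios are given for the male array first and the female array second. For single genes, levels are compared between channels within a probe. A summed level adds the probes of a list and is also compared between channels only. Brightness ranks serve only to place a probe on the scale of the array.

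Embryonic globins had lower and adult-type beta globins higher means in Rbpj-cKO ureters, all by small amounts and none past the test. The 3 embryonic globins had mean ratios of -0.36 (Hbb-y), -0.30 (Hbb-bh1) and -0.22 (Hba-x), and the 3 adult-type globins had 0.22 (Hbb-b1), 0.18 (Hbb-b2) and 0.14 (Hba-a1). None of the 8 genes passed (adjusted p = 1 for each), in a table where 27 of 20989 features did (0.129%; 0.0858% lower and 0.0429% higher in Rbpj-cKO). At an unadjusted p under 0.05 the count was also 0 of 8, against 3.37% of all features.

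**Figure D1:**
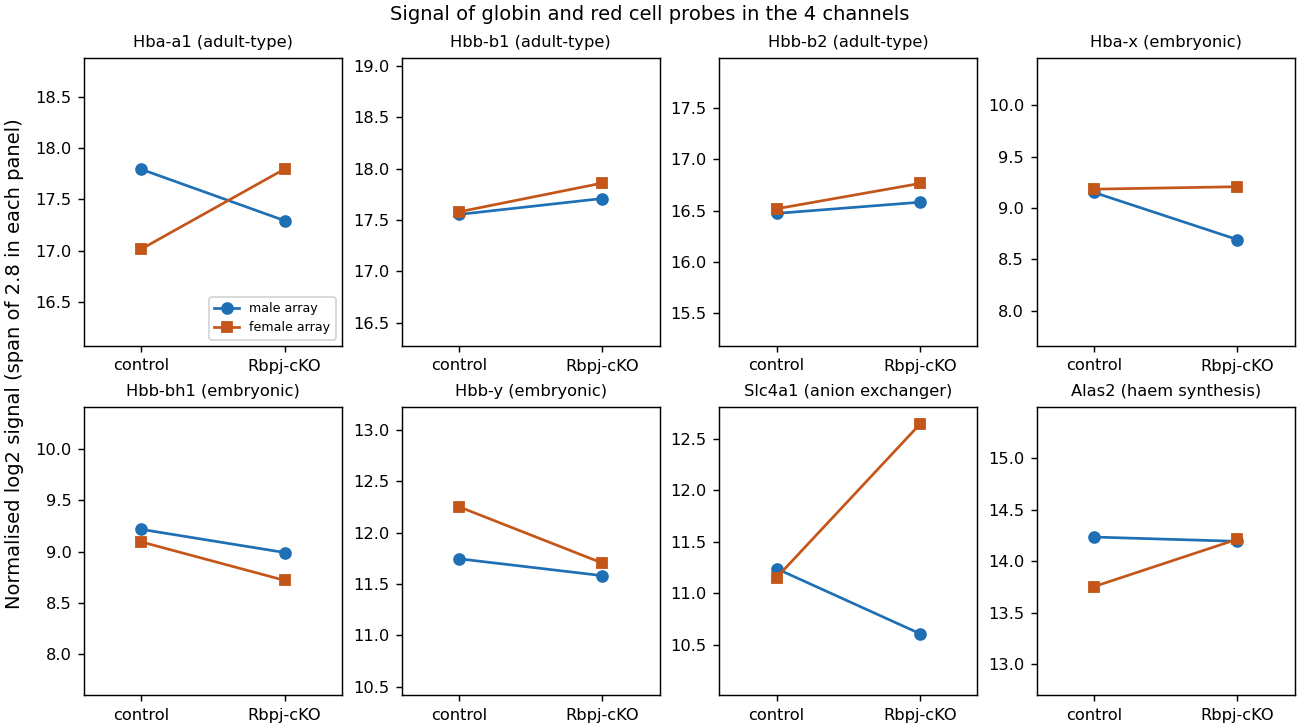
Normalised log2 signal of each gene's brighter or single probe in the control and Rbpj-cKO channels of the male array (blue circles) and the female array (orange squares), 1 panel a gene, with the same span of the axis in each. Both lines slope down for Hbb-bh1 and Hbb-y and up for Hbb-b1 and Hbb-b2, and the lines cross or part for Hba-a1 and Slc4a1.

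Among the adult-type chains, Hbb-b1, the adult major beta chain in the naming of the array, lies under its probe on chromosome 7 at 110961105 to 110961164 (mm9, minus strand). Its level was 17.56 in the male control, 17.71 in the male Rbpj-cKO, 17.58 in the female control and 17.86 in the female Rbpj-cKO channel. Both Rbpj-cKO channels lay above both controls. The ratio was 0.15 (male) and 0.28 (female; mean 0.22, SD 0.09, n = 2), a 1.16-fold difference with a 95% interval of -0.21 to 0.64 from limma.

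Hbb-b2, the adult minor beta chain, had levels of 16.47 and 16.52 in the male and female controls and of 16.58 and 16.76 in the Rbpj-cKO channels. The groups did not overlap here either. Its ratio was 0.11 (male) and 0.25 (female; mean 0.18, SD 0.10, n = 2; adjusted p = 1). The files map this probe to no position. The adult beta genes are near-identical copies, and a probe of one can take up RNA of another, so the 2 values are not independent.

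Hba-a1, an adult alpha chain, had its probe on chromosome 11 at 32183955 to 32184014 (mm9). Its level was 17.79 in the male control and 17.29 in the male Rbpj-cKO channel, and 17.02 in the female control and 17.80 in the female Rbpj-cKO channel. The 2 high channels are the green ones and the 2 low channels the red ones, so the groups overlap fully. The ratio was -0.50 (male) and 0.78 (female; mean 0.14, SD 0.90, n = 2). Read as red over green, it was -0.50 and -0.78, below 0 on both arrays.

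Hba-a2, the neighbouring adult alpha gene and no member of the set, makes nearly the same chain and was in the fixed red cell list. With loess it showed no such split. Its levels were 17.36 and 17.57 in the controls and 17.74 and 17.81 in the Rbpj-cKO channels, with ratios of 0.38 (male) and 0.24 (female; mean 0.31, SD 0.10; adjusted p = 1). With median centring the pattern of the 2 alpha genes turned round, with 1.06 (male) and -0.48 (female) for Hba-a2 and 0.19 and 0.11 for Hba-a1. RNA of the 2 alpha genes may be shared between their probes.

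The embryonic beta chains had the lower levels in Rbpj-cKO channels. Hbb-y, the epsilon-y chain, had levels of 11.75 in the male control, 11.58 in the male Rbpj-cKO, 12.25 in the female control and 11.70 in the female Rbpj-cKO channel. Both Rbpj-cKO channels lay below both controls. The ratio was -0.16 (male) and -0.55 (female; mean -0.36, SD 0.27, n = 2), with a 95% interval of -0.80 to 0.09.

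A second, dimmer Hbb-y probe gave the same direction on both arrays. It lies at 111000448 to 111000507 on chromosome 7 (mm9, minus strand), and the brighter probe lies at 111000268 to 111000327. Its ratios were -0.28 (male) and -0.51 (female; mean -0.39, SD 0.16). With each probe as a feature of its own, it had an unadjusted p of 0.0688 and an adjusted p of 1 in limma, and the brighter probe had an unadjusted p of 0.103.

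Hbb-bh1, the beta-h1 chain, has its probe at 110990209 to 110990268 on chromosome 7 (mm9, minus strand). Its levels were 9.22 in the male control and 9.09 in the female control, and 8.99 and 8.72 in the male and female Rbpj-cKO channels. The groups did not overlap. The ratios were -0.23 and -0.37 (mean -0.30, SD 0.11, n = 2), a 1.23-fold lower mean with a 95% interval of -0.73 to 0.13.

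Hba-x, the zeta chain, was lower in the male Rbpj-cKO channel alone. Its probe lies on chromosome 11 at 32177668 to 32177727 (mm9). The levels were 9.15 and 9.18 in the male and female controls, 8.69 in the male Rbpj-cKO and 9.21 in the female Rbpj-cKO channel. The groups overlap, and the ratio was -0.46 (male) and 0.02 (female; mean -0.22, SD 0.34). With Agilent's processed signals both ratios were below 0, at -0.60 and -0.16.

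Of the 3 embryonic globins, 2 had ratios below 0 on both arrays, where 19.7% of all features did. Of the 3 adult-type globins, 2 had ratios above 0 on both, where 21.7% of all features did. Levels of the 2 groups did not overlap for Hbb-bh1 and Hbb-y (lower in Rbpj-cKO, as for 12.5% of features) and for Hbb-b1 and Hbb-b2 (higher, as for 14.9% of features).

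**Figure D2:**
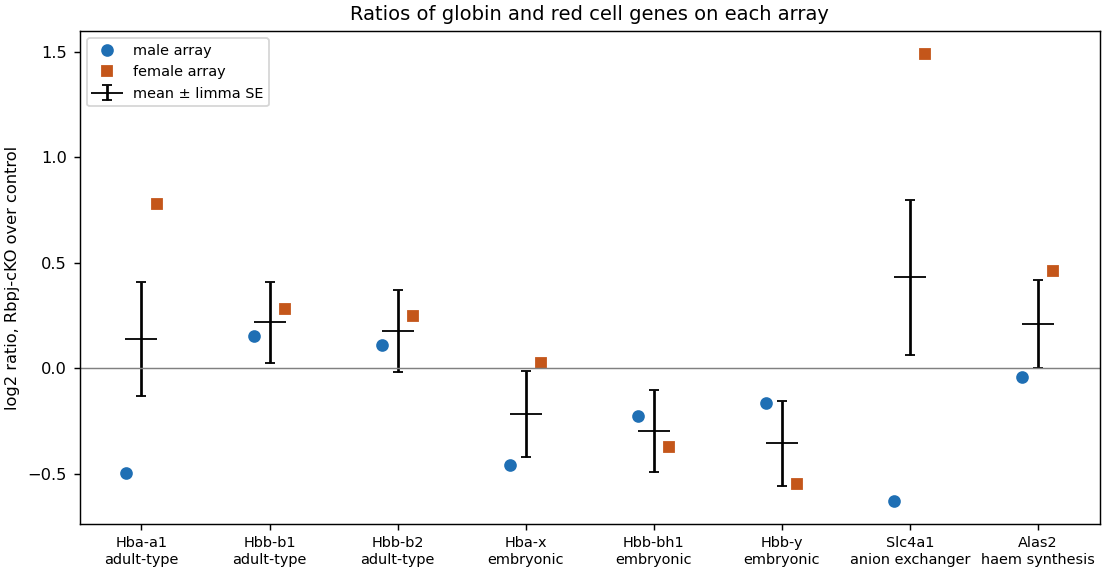
Log2 ratio of Rbpj-cKO over control on the male array (blue circles) and the female array (orange squares), with the mean and its limma standard error (black), for the 8 genes in order of class. The embryonic globins have means between -0.36 and -0.22 and the adult-type globins between 0.14 and 0.22, while Slc4a1 has the widest gap between the arrays, from -0.63 to 1.49.

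The embryonic globins were set against the adult-type globins within each array. The mean ratio of the 3 embryonic genes was -0.28 (male) and -0.30 (female), and that of the 3 adult-type genes -0.08 and 0.43. The embryonic minus adult-type difference was thus -0.20 (male) and -0.73 (female; mean -0.47, SD 0.37, n = 2). With 2 arrays the exact two-sided sign-flip permutation test gives p = 0.5, the smallest it can give, so the difference is a description. With median centring in place of loess it was -0.74 (male) and -0.11 (female), so the array with the larger difference switched while the mean stayed at -0.43. Of 13 settings, 3 of them with other genes in the averages and added after seeing the data, several leave the globin values as they are and 8 gave distinct values; in these the difference was below 0 on both arrays, with means from -0.51 to -0.43.

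The same direction was seen in the beta family on each array. Hbb-y minus the mean of Hbb-b1 and Hbb-b2 was -0.30 (male) and -0.81 (female), and Hbb-bh1 minus the same mean was -0.36 and -0.64. In the alpha family the values depended on which adult gene was used. Hba-x minus Hba-a1 was 0.04 (male) and -0.75 (female), and Hba-x minus Hba-a2 was -0.83 and -0.21. Without Hba-a1 in the adult average, the embryonic minus adult-type difference was -0.41 (male) and -0.56 (female).

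The scaling changed the adult-type ratios on single arrays more than their means. Adult globin probes lie at the bright end of the array, where 82 other kept probes were at least as bright as that of Hbb-b1 and 227 as that of Hba-a1. The embryonic probes were dimmer. Of 26238 kept probes, 11614 were at least as bright as that of Hbb-y, 19066 as that of Hba-x and 19251 as that of Hbb-bh1. The embryonic minus adult-type difference thus also sets dimmer against brighter probes. The part of probe brightness in it was not tested. With each array centred on its median in place of loess, Hbb-b1 had 0.85 (male) and -0.45 (female), and Hbb-b2 had 0.67 and -0.30. Hba-a1 then had 0.19 and 0.11. The mean of the 3 adult-type genes was 0.18 in both settings. The embryonic globins moved less: Hbb-bh1 had -0.14 and -0.39, and Hbb-y 0.004 (male) and -0.59 (female). Median centring also moved the median of all features to 0.17 (male) and -0.09 (female), from 0.01 on each with loess.

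**Figure D3:**
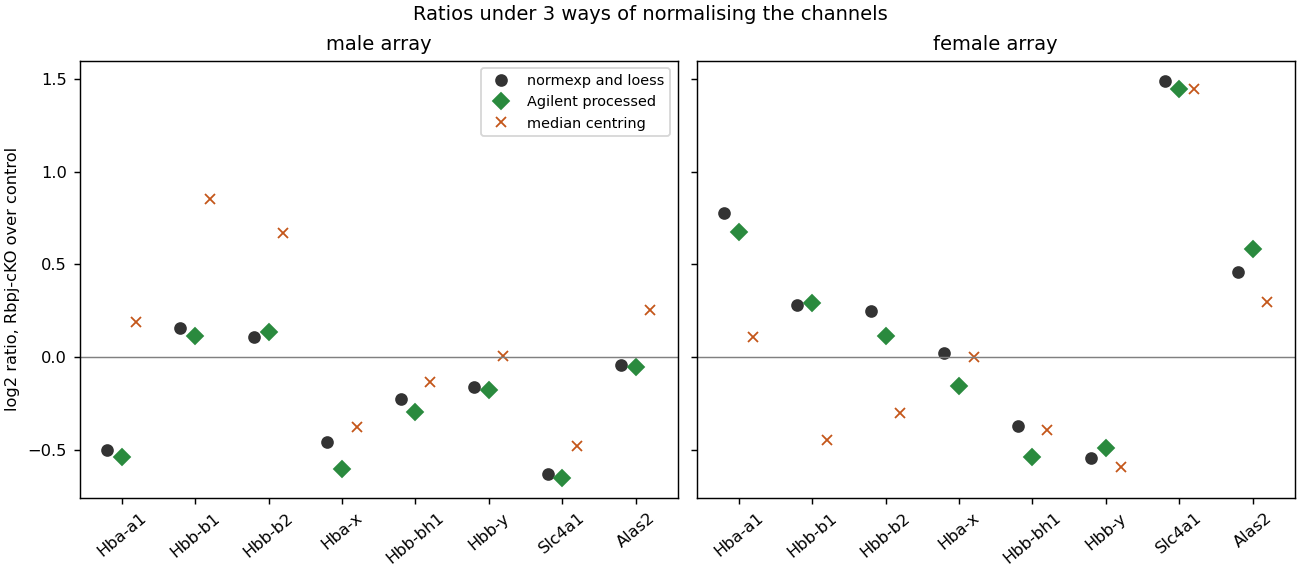
Log2 ratio of Rbpj-cKO over control for the 8 genes on the male array (left) and the female array (right), with loess after normexp (black circles), with the signals processed by Agilent's software (green diamonds) and with median centring (orange crosses). Hbb-b1 and Hbb-b2 stand above 0 on both arrays with loess and on opposite sides of 0 with median centring, while Slc4a1 stays at -0.48 or lower on the male and 1.45 or higher on the female array.

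The other red cell members differed between the arrays. Slc4a1, which exchanges chloride for bicarbonate across the red cell membrane and is also made by acid-secreting cells of the kidney, has its probe on chromosome 11 at 102210256 to 102210315 (mm9, minus strand). Its level was 11.24 in the male control, 10.61 in the male Rbpj-cKO, 11.15 in the female control and 12.64 in the female Rbpj-cKO channel. The controls lay close together, and the female Rbpj-cKO channel stood apart from the other channels. The ratios were -0.63 on the male (1.55-fold lower) and 1.49 on the female array (2.81-fold higher), with a mean of 0.43 (SD 1.501, n = 2; adjusted p = 1).

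The gap between the arrays was 2.12 for Slc4a1, and 0.272% of all features had a gap at least as high in that direction. Since 1 array is male with Rbpj-cKO in red and the other female with Rbpj-cKO in green, sex, dye and the RNA of each array cannot be told apart as sources of a gap. As red over green, Slc4a1 had -0.63 and -1.49.

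Alas2, the red cell form of the enzyme that begins haem synthesis, has its probe on chromosome X at 147004993 to 147005052 (mm9). Its level was 14.24 in the male control, 14.19 in the male Rbpj-cKO, 13.75 in the female control and 14.21 in the female Rbpj-cKO channel. The low channel was the female control, and the groups overlap. The ratios were -0.04 (male) and 0.46 (female; mean 0.21, SD 0.36; adjusted p = 1). With median centring the ratios were 0.26 and 0.30.

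Other red cell genes, from a fixed list of known red cell genes, had a median ratio of 0.14 over the 50 measured of 54, beside 0.01 over all features and 0.21 over the 12 urothelial markers. Of those 12, 10 were above 0 on both arrays with loess, as were 21.7% of all features. With median centring 2 of the 12 were. None of the 50 passed, and 1 of the 50, Bcl11a, had an unadjusted p under 0.05 in limma, as did 3.37% of all features. The median was -0.08 (male) and 0.30 (female); with median centring it was 0.12 and 0.22. Of the 50, 25 were below 0 on the male and above 0 on the female array (29.3% of all features), and 16 were above 0 on both (21.7%). Another 3 were below 0 on both (19.7%) and 6 were above 0 on the male only (29.3%). With median centring 20 of the 50 were below 0 on the male and above 0 on the female array. The shares of all features are with loess, and those with median centring are not given here.

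Among transcription regulators of the red cell line and the receptor gene Epor, the median was 0.27 over 11 genes, with 0.01 (male) and 0.48 (female). Gfi1b, a repressor needed for red cell and platelet formation, had -0.27 (male) and 1.16 (female). Nfe2 had -0.28 and 0.92, and Zfpm1, the cofactor of GATA factors, had 0.37 and 0.47. Bcl11a, a repressor of embryonic and fetal-type globin genes, had 0.37 and 0.48 (mean 0.43; adjusted p = 1, unadjusted p = 0.0492). Outside the naming rule, and chosen after their values were seen, Klf1, which binds CACCC letters and drives adult beta globin, had -0.46 and 1.02, and Sox6, a partner of Bcl11a, had 0.01 and 0.53. Gata1 had -0.23 and 0.62, Tal1 had 0.03 and 0.30, and Myb had 0.39 and -0.02. The part of these factors in the globin ratios was not tested. The lowest means were those of Epor, the erythropoietin receptor (0.02; 0.17 and -0.14), and of Lmo2 (0.02; -0.07 and 0.11).

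Membrane and skeleton genes of the red cell (17 measured of 18) had a median of 0.12. Of the 17, 8 were below 0 on the male and above 0 on the female array (29.3% of all features), and 2, Gypc (0.35 and -0.11) and Slc14a1 (0.19 and -0.14), went the other way. Among those with opposite values on the arrays were the claudin Cldn13 (-0.65 on the male array, 0.83 on the female), the blood group antigen gene Kel (-0.48 and 0.91) and the Rhesus gene Rhd (-0.30 and 1.08); these 5 were singled out after their values were seen. Among the highest means were those of Icam4 (0.40), Rhd (0.39) and Tspan33 (0.28). The lowest were those of Ank1, which ties Slc4a1 to the membrane skeleton (-0.32; -0.35 and -0.29), and of Ermap (-0.07).

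Haem and iron genes had a median of 0.07 over 12 genes. The ferrous transporter Slc11a2 (0.27), the mitochondrial iron importer Slc25a37 (0.24), Fech, which inserts iron into haem (0.23), and Ppox (0.23) had the highest means. Tfrc, the transferrin receptor, had the lowest (-0.09), made up of -1.06 (male) and 0.89 (female). Other red cell genes had a median of 0.09 over 8, among them Ahsp, the chaperone of free alpha globin (0.22), the 2,3-bisphosphoglycerate enzyme Bpgm (0.16) and the carbonic anhydrases Car2 (0.09) and Car1 (-0.06). All 8 had a higher ratio on the female than on the male array with loess, as did 48.8% of all features. With median centring 5 of the 8 did, and the matching share of all features is not given here.

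Of the less used globins, Hbq1b had -0.29 (male) and 0.22 (female; mean -0.03). The 2 probes of Hbb-bh2 were not well above background in any of the 4 channels.

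Hepatocyte markers differed between the arrays in the direction of Slc4a1. Of 8 hepatocyte markers, 7 were below 0 on the male and above 0 on the female array (29.3% of all features). Their median was -1.28 and 0.64, and none passed. The widest gaps were those of Alb (-1.70 and 1.03) and Afp (-1.81 and 1.402), while Ttr went the other way (0.08 and -0.04). The summed level of the 8 was 17.74 in the male control and 16.62 in the male Rbpj-cKO, and 17.30 in the female control and 18.07 in the female Rbpj-cKO channel, so the order of the channels was that of Slc4a1 at its ends, with the male Rbpj-cKO lowest and the female Rbpj-cKO highest. Their part in the values of the red cell genes was not tested.

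Leukocyte markers (12 measured of 12) had medians of 0.05 (male) and 0.41 (female), and a summed level of 15.86 and 15.99 in the male control and Rbpj-cKO and of 16.14 and 16.82 in the female control and Rbpj-cKO. Their part was not tested. Endothelial markers (12 of 12), which would follow the vessels themselves, had 0.05 and -0.13, and their summed level lay between 16.27 and 16.45 in the 4 channels. Single endothelial genes varied more, such as Egfl7 (0.16 and -0.90), Tek (-0.41 and -0.41) and Robo4 (0.77 and 0.16). Of the 12, 3 were above 0 on both arrays (21.7% of all features) and 3 below 0 on both (19.7%). Platelet markers (9 of 10) had -0.03 and -0.0012, with summed levels between 16.52 and 16.77. These sums mostly follow the single gene Pf4. Its levels were 16.64 and 16.56 in the male control and Rbpj-cKO and 16.69 and 16.42 in the female control and Rbpj-cKO.

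The 5 features nearest to Slc4a1 in their 2 ratios, by distance on the log2 scale, were Camp (0.03 away), S100a8 (0.16), Slc36a2 (0.18), Afm (0.29) and Proc (0.33). Camp had -0.60 (male) and 1.48 (female), and S100a8 had -0.60 and 1.34. None of the 5 passed.

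**Figure D4:**
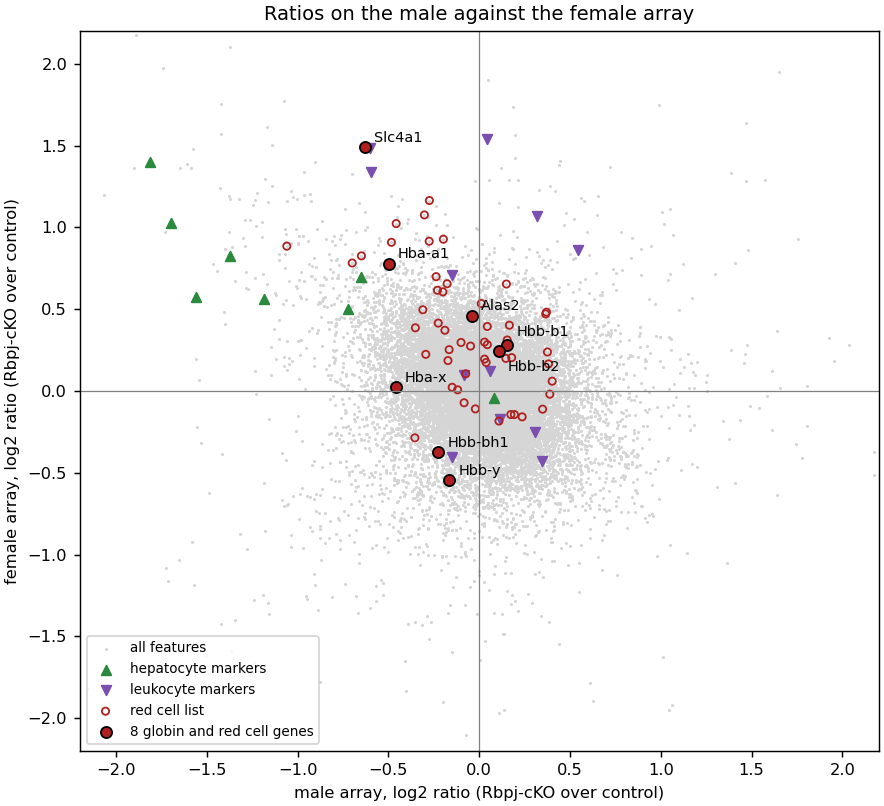
Log2 ratio of Rbpj-cKO over control on the male (x) against the female array (y) for all features (grey; 22 lie beyond the axes, which end at 2.2), the 8 genes (filled red, named), the other red cell genes (open red), hepatocyte markers (green) and leukocyte markers (purple). Slc4a1 and 7 of 8 hepatocyte markers lie in the upper left, below 0 on the male and above 0 on the female array, and Hbb-bh1 and Hbb-y lie in the lower left.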

How the data were processed

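The 2 deposited scanner files hold, per the file headers, the intensity of each spot as read by Feature Extraction (10.7.3.1 in the submitters' processing notes): mean and background signals without normalization, processed signals after background subtraction and dye normalization, and a log10 ratio, which was not used. Probe positions are on mm9, per the file headers; exons and UTRs under the probes were not analysed here. The deposited series table holds a score per probe, and how it was made is not stated. Its values are signed folds of Rbpj-cKO over control and gave the same globin contrast as the processed signals. Over all probes, though, the correlation of its log2 ratios with those of the processed signals was 0.74 (male) and 0.70 (female).

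Mean signals were corrected with normexp (offset 50), normalised by loess within each array and turned to Rbpj-cKO over control. Outlier spots (200 male, 274 female) were dropped, none from the 8 genes. Probes well above background on both arrays in either group were kept, and the brightest stood for a gene. Accessions were matched to RefSeq for 26412 of 39429 probes, and the others kept the name in the files. Channel levels are after loess and Aquantile. limma 3.58.1 (R 4.3.3; lmFit and eBayes, two-sided, Benjamini-Hochberg, threshold 0.05) had 1 residual and 10.3 prior degrees of freedom, so p-values rest on a spread pooled over features and on 2 arrays. Both arrays share a slide and a scan. The fit was tested on simulated data. The genes, the lists and the naming rule (all members, up to 4 highest and 4 lowest genes per role, 5 features nearest to Slc4a1) were chosen with earlier results of these data known. The list's Hbb-bt is the probe named Hbb-b1. Some genes of the lists are counted but not reported here by name.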

Additional observations from a re-analysis of the deposited data

Results flagged for a closer look

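For 4 of the 8 genes the ratios on the 2 arrays lay on opposite sides of 0 with loess, and the difference between the arrays was not tested. All 4 were below 0 on the male and above 0 on the female array, as were 29.3% of all features. Another 29.3% of all features lay on opposite sides the other way, as did 0 of the 8 genes. The female ratio minus the male ratio was 2.12 for Slc4a1, 1.28 for Hba-a1, 0.50 for Alas2 and 0.48 for Hba-x. With loess the female array carried the higher ratio in each of these 4. Of the 4, only Slc4a1 lay on opposite sides both with median centring and with Agilent's processed signals. With median centring, Alas2 had 0.26 (male) and 0.30 (female), Hba-a1 had 0.19 and 0.11, and Hba-x had -0.38 and 0.0006. Hbb-b1 (0.85 and -0.45) and Hbb-b2 (0.67 and -0.30) then lay on opposite sides. With Agilent's processed signals Hba-x had -0.60 and -0.16. With 1 array a sex and 1 dye orientation an array, sex, dye and RNA cannot be told apart.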

How the results depend on the processing

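None of the 8 genes passed under the main setting or under any of 9 others, and the mean of each gene kept its direction. The embryonic minus adult-type difference ranged from -0.73 without replicate 1 to -0.20 without replicate 2 with loess; with median centring the single arrays gave -0.11 (female) and -0.74 (male), in reverse order. The median of the red cell list was 0.30 without replicate 1 and -0.08 without replicate 2, so with loess its direction rests on the female array; with median centring both arrays were above 0 (0.12 male, 0.22 female). The count of features called, 27, was 0 with Agilent's processed signals, with median centring, with the series value table and with dim probes kept; in these 4 settings limma's smallest adjusted p-values were 0.0518, 0.156, 0.0755 and 0.0521, with 843, 226, 819 and 979 features at an unadjusted p under 0.05. It was 69 without background subtraction, 10 with probes averaged per gene, 42 with each probe as a feature and 41 with an intensity trend. The causes were not tested. With 1 array left, counts cannot be tested. The fit on ratios within an array is itself paired by array.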

Other observations

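Globins of cells other than red cells were also on the array. Ngb, the globin of nerve cells, had ratios of -0.73 (male) and -0.22 (female), with a mean of -0.48 (limma unadjusted p = 0.0413, adjusted p = 1). Its probe was dim, with levels of 8.25 and 7.52 in the male control and Rbpj-cKO channels. In the female control and Rbpj-cKO channels they were 7.84 and 7.62. Cygb, a globin of fibroblast-like cells, had ratios of 0.08 and -0.37 (mean -0.15). Mb, the muscle globin, was left out by the filter for dim spots. Among leukocyte markers the neutrophil granule gene Mpo had 0.54 and 0.86 (limma unadjusted p = 0.0044, adjusted p = 0.593), S100a9 had 0.32 and 1.07 (limma unadjusted p = 0.0094, adjusted p = 0.891) and Ltf had 0.05 and 1.54 (limma unadjusted p = 0.0204, adjusted p = 1), while the macrophage lysozyme gene Lyz2 had -0.15 and -0.40, and none of these 4 passed limma's adjusted threshold. So 3 of 12 leukocyte markers had an unadjusted p under 0.05, as did 3.37% of all features.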
